A study of Mus musculus with 24 samples.

Results

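Abca1, Abca2, Abca3, Abca5 and Abcg1 encode ATP-binding cassette (ABC) transporters that move lipids across or between the leaflets of membranes. They were taken by gene symbol from the table of normalised read counts, which listed 53465 genes, and all 5 were among the 15493 genes tested, which reached 5 reads in 6 or more mice of either genotype. The RNA came from brain endothelial cells, the lining of the vessels, which had been purified from individual C57BL/6J mice by beads that take out myelin and then by sorting for CD31. Both groups carried the floxed clock gene Bmal1 (listed as Arntl) on both alleles. In the 12 control mice (Bmal1fl/fl) the gene was intact, and in the 12 mutant mice (Bmal1fl/fl; Tie2cre) a floxed exon was deleted in cells that make Cre from the Tie2 promoter, which is active in endothelial cells and also in part of the blood cell lineage. Collection took place every 4 h from ZT2 to ZT22, with 2 mice of either genotype each time, where zeitgeber time (ZT) 0 is lights on. Male and female mice were used, and neither the sex of single mice nor their age is given in the sources used here.

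ABCA1 hands cholesterol and phospholipid to lipid-poor apolipoproteins, and ABCG1 passes cholesterol on to particles that already hold lipid, so that both act early in the removal of cholesterol from cells. Their genes are classic targets of the liver X receptors (LXR), which sense oxidised cholesterol, and in the brain they are also used by astrocytes and microglia. ABCA2 and ABCA5 sit in late endosomes and lysosomes and are linked to the handling of cholesterol and sphingolipids, with ABCA2 well known from oligodendrocytes. ABCA3 loads phospholipid into the lamellar bodies of lung surfactant cells, and its substrates in brain endothelium are less well described.

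The 24 libraries held between 6136404 and 6648311 normalised reads, and the depth before normalisation is no longer in these values. Endothelial marker genes were present in every library, with a summed count between 68530 and 116209 for 12 genes. The libraries of the 8 mice of ZT6 and ZT18 stood apart from the other 16. Their library numbers are consecutive, but most of the other libraries continue the same numbering without a gap, and the labels mark no separate batch that ends there. Their mitochondrial share was between 2.68% and 3.90%, against 5.78% to 17.4%, and the sum of 12 microglial marker genes was between 1510 and 2718 reads, against 13506 to 35983. All mice of those time points are on the same side of this split, so time of day and anything else these libraries share cannot be told apart. Arntl itself had between 1 and 468 reads in control and between 81 and 354 in mutant mice. The count covers the whole gene and the mutation removes a single exon, so this range does not check the genotypes.

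The stretches upstream of 2 of the genes are shown because they hold the letters through which a clock factor or a sterol sensor could bear on these transporters. Promoters of 4 of the 5 genes were found in the RefSeq table (GRCm38.p6, 250 bases before the start), the exception being Abcg1. Upstream of Abca1 lay the E-box CACGTG, the sequence bound by BMAL1 with its partner, which starts 147 bases before the transcription start and is held by 7.15% of all 32851 promoters in the table. Abca1 also held TGACC and TAACC with 5 bases between them, the imperfect repeat known as the LXR element of this promoter, which starts at base -67 and was found in 0.0487% of promoters. As this motif is defined by the Abca1 promoter, the match was given in advance, and the share shows only how rare the letters are. Upstream of Abca3 lay the sterol regulatory motif TCACNCCAC at base -225, held by 1.24% of promoters. The single LXR half-site AGGTCA (16.3% of promoters) and the D-box TTATGTAA (0.938%) had no match in the 4 windows. All motifs were searched on both strands, none overlapped another, and a match is only a description of the letters. The Abca1 stretch is chr4:53159896-53160145 on the minus strand, bases -250 to -1, and the Abca3 stretch is chr17:24351773-24351949 on the plus strand, which ends where the annotated gene begins. Capitals mark the motifs.
Abca1: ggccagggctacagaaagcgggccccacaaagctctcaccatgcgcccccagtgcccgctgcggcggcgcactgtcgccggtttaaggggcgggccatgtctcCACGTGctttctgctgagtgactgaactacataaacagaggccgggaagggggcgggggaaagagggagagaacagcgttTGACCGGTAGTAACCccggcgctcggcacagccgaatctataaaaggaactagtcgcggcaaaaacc
Abca3: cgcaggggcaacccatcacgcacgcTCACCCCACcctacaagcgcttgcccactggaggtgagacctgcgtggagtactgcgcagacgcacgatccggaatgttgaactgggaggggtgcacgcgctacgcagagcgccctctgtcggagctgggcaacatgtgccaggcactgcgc

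Abca1 was the most abundant of the 5 transporters in these sorted samples and Abca5 the least. The samples also held marker RNA of other cell types, so the levels are not those of endothelial cells alone. Per kilobase of exon, Abca1 (ENSMUSG00000015243, chr4:53030787-53159895) had 189 ± 36.0 normalised reads in control and 182 ± 48.4 in mutant mice (SD, n = 12 each). Abca3 (ENSMUSG00000024130, chr17:24351950-24410201) came next with 63.8 ± 14.1 reads per kilobase in control and 80.0 ± 13.1 in mutant mice. Abca2 (ENSMUSG00000026944, chr2:25428703-25448540) had 47.8 ± 17.8 and 41.7 ± 15.5 reads per kilobase. Abcg1 (ENSMUSG00000024030, chr17:31057675-31117988) had 42.5 ± 8.48 and 51.7 ± 12.8. Abca5 (ENSMUSG00000018800, chr11:110269369-110337716) had 12.0 ± 3.60 and 11.8 ± 2.39.

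The order held within single libraries at both ends. Abca1 lay above Abca3 in 23 of 24 libraries, Abca3 lay above Abcg1 in 23 and above Abca2 in 22, and Abca5 was the lowest in all 24. Abca2 and Abcg1 were not separated. Abca2 was the higher of this pair in 8 of 12 control and in 2 of 12 mutant libraries, and their values overlapped in both genotypes. For scale, Abcb1a, the efflux pump of the blood-brain barrier, had 2110 ± 322 reads per kilobase in control mice. The drug transporter Abcg2 had 309 ± 69.9, so the means of all 5 lipid transporters lay below both. Within some single libraries, however, Abca1 lay above Abcg2 per kilobase. A gene on the opposite strand, D330041H03Rik, overlaps Abca3 and had a mean of 29.4 reads. Whether strand was used in counting is not given in the sources used here.

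**Figure D1:**
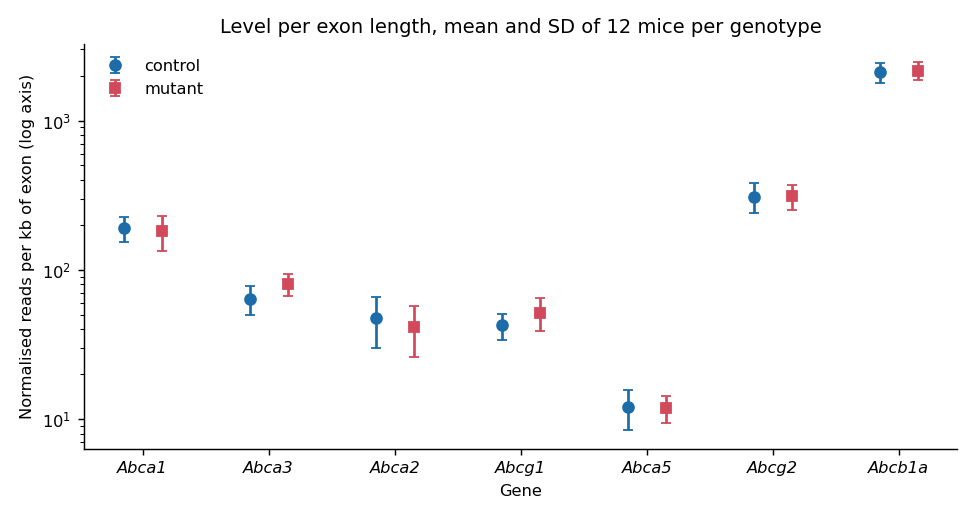
Normalised reads per kilobase of exon (log axis) for the 5 lipid transporters and, for scale, Abcg2 and Abcb1a, with the mean and SD of 12 control (circles) and 12 mutant (squares) mice. Abca1 sits near 189 and 182 reads per kilobase in control and mutant mice and Abca5 near 12.0 and 11.8.

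Whether loss of Bmal1 in these cells changed the levels was tested in edgeR (quasi-likelihood F test), with time of collection as a covariate. None of the 5 transporters passed an adjusted p of 0.05 (Benjamini-Hochberg over 15493 genes), as did 0.271% of all genes tested. Abca3 and Abcg1 were the higher in mutant mice and had unadjusted p-values under 0.05, which 6.95% of all genes had. Abca1, Abca2 and Abca5 had unadjusted p-values between 0.114 and 0.901.

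Abca3, the phospholipid transporter, had the smallest p. Its lowest, median and highest counts were 410, 598.5 and 849 normalised reads in control and 562, 730.5 and 954 in mutant mice. The control mice had 630 and 600 reads (ZT2), 712 and 749 (ZT6), 597 and 501 (ZT10), 421 and 519 (ZT14), 410 and 849 (ZT18), then 665 and 526 (ZT22). The mutant mice had 654 and 688 reads (ZT2), 607 and 812 (ZT6), 762 and 562 (ZT10), 954 and 919 (ZT14), 863 and 798 (ZT18), then 699 and 680 (ZT22). Both mutant mice lay above both control mice at ZT2, ZT14 and ZT22, and the genotypes overlapped at ZT6, ZT10 and ZT18. The widest gap was at ZT14. Over all time points Abca3 was 1.25-fold the control level in mutant mice (log2 fold change 0.33, 95% interval 0.11 to 0.54; edgeR unadjusted p = 0.00407, adjusted p = 0.333).

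Abcg1, the partner of ABCA1 in cholesterol export, had counts of 182, 323 and 381 (lowest, median, highest) in control and of 277, 346 and 559 in mutant mice. In control mice it had 380 and 324 reads (ZT2), 376 and 258 (ZT6), 345 and 381 (ZT10), 322 and 294 (ZT14), 230 and 182 (ZT18), then 329 and 298 (ZT22). In mutant mice it had 345 and 544 reads (ZT2), 327 and 308 (ZT6), 297 and 369 (ZT10), 403 and 559 (ZT14), 313 and 277 (ZT18), then 347 and 440 (ZT22). Both mutant mice lay above both controls at ZT14, ZT18 and ZT22, and at ZT10 the mutant mean was the lower. Abcg1 was 1.22-fold the control level in mutant mice (log2 fold change 0.28, 95% interval 0.06 to 0.50; edgeR unadjusted p = 0.0153, adjusted p = 0.546).

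Abca1, the exporter to lipid-poor apolipoproteins, had 1418, 1923.5 and 2530 reads (lowest, median, highest) in control and 877, 1944.5 and 2634 in mutant mice. The ranges overlapped almost completely, and the mutant level was 0.947-fold the control level (95% interval 0.844 to 1.06; edgeR adjusted p = 0.915). Of the lysosomal pair, Abca2 had 254, 387 and 833 reads in control and 187, 332.5 and 710 in mutant mice. The ratio was 0.855 (95% interval 0.702 to 1.04; edgeR adjusted p = 0.816). Abca5 had 69, 128 and 203 reads in control and 98, 136.5 and 180 in mutant mice, with a ratio of 0.986 (95% interval 0.784 to 1.24; edgeR adjusted p = 0.994). For these 3 genes the intervals reach from a loss of at most 0.702-fold to a gain of at most 1.24-fold.

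No marker of another cell type passed the genotype test, although some lists leaned one way. Of 11 oligodendrocyte markers tested, 1 had a higher and 10 a lower estimate in mutant mice (median log2 fold change -0.46) and 4 had an unadjusted p under 0.05. Of 10 astrocyte markers 9 had a lower estimate in mutant mice (median log2 fold change -0.18) and so had all 6 red blood cell genes (median -0.38), with 2 and 3 at an unadjusted p under 0.05, whereas 11 of 12 endothelial markers (median 0.11) and 10 of 12 microglial markers (median 0.07) had a higher one, with 3 and 0 at an unadjusted p under 0.05. The 3 were Cldn5 (log2 fold change 0.28), Kdr (0.20) and Ly6c1 (0.18), and the part of endothelial content in the estimates of Abca3 and Abcg1 was not tested. The summed oligodendrocyte count was between 5010 and 21653 in control and between 4989 and 16417 in mutant libraries, and Mog was at 0 in 12 of the 24 libraries. Mal, among the largest counts in this sum, ran against most of the list, with a mean of 2724 reads in control and 3021 in mutant mice. The sum therefore follows Mal as well as the other markers. With the oligodendrocyte sum as a covariate, the log2 fold change was 0.26 for Abca3, 0.26 for Abcg1 and -0.17 for Abca2. With the microglial sum as a covariate it was 0.32 for Abca3, 0.27 for Abcg1 and -0.24 for Abca2. Within the 16 libraries outside ZT6 and ZT18 the log2 fold changes were 0.38 for Abca3 and 0.27 for Abcg1, and within the 8 libraries of ZT6 and ZT18 they were 0.21 and 0.28.

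**Figure D2:**
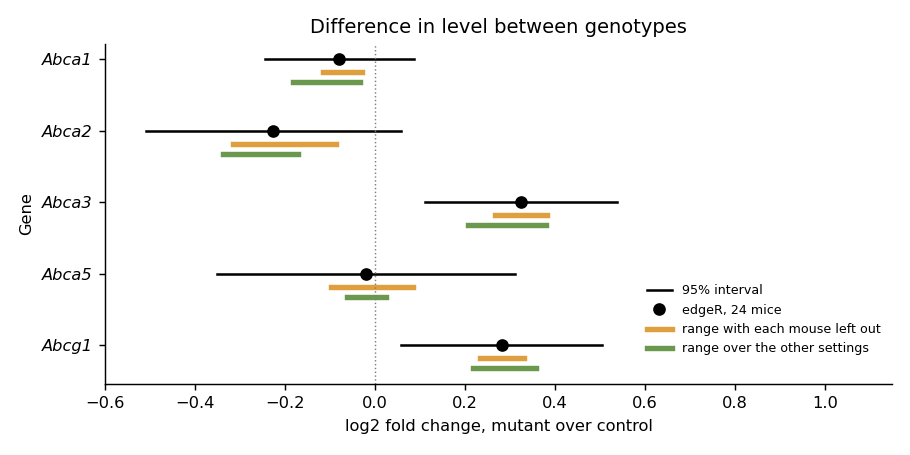
Log2 fold change of each transporter in mutant over control mice (points, edgeR, 24 mice) with its 95% interval, and the range of the estimate when each mouse was left out in turn and over the other settings tried. Only Abca3 (0.33) and Abcg1 (0.28) have intervals that do not reach 0, and neither passed the adjusted threshold.

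None of the transporters had a rhythm with a 24-h period by the test used in the study. By meta2d, which joins JTK_CYCLE and Lomb-Scargle p-values, 0 of the 5 had q under 0.6 in either genotype, where 0.31% of the genes tested in control and 0.0387% in mutant mice did. None had an unadjusted p under 0.05 either, which 2.43% of genes in control and 2.27% in mutant mice had. The smallest p-values of the 5 were that of Abca3 in mutant mice (meta2d p = 0.215), with a fitted peak at ZT15.5, and that of Abcg1 in control mice (meta2d p = 0.443), with a peak at ZT6.12. Abca1, Abca2 and Abca5 had meta2d p-values from 0.881 to 1. With 12 mice per genotype and 2 per time point, a weak rhythm could have been missed. The test also had no term for the split between the ZT6 and ZT18 libraries and the others. In an edgeR cosine fit with that term, the smallest unadjusted p-values were 0.0534 for Abca3 in mutant and 0.101 for Abcg1 in control mice. Both had an edgeR adjusted p of at least 0.771.

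Whether the 24-h pattern itself differed between genotypes was tested in edgeR by letting the cosine and sine terms of a daily curve depend on genotype. None of the 15493 genes passed the adjusted threshold (0.0%), 4.26% had an unadjusted p under 0.05, and DESeq2 gave 1 gene past its adjusted threshold. On simulated data of this design the edgeR test missed most differences in rhythm at the smaller of the amplitudes simulated. Peak and trough still lie several-fold apart at that amplitude. Every simulated gene had the same spread between mice, a coefficient of variation of about 42%, close to the common value fitted here. For genes of that spread the absence of calls says little about differences of that size or below. The spread of each transporter was not simulated, so power for these 5 genes was not tested. None of the 5 transporters was under 0.05 without adjustment. Abca3 came closest (edgeR p = 0.0723, adjusted p = 1.00). It was not called rhythmic in either genotype, and cosines fitted to its counts peaked at ZT2.81 in control and ZT15.5 in mutant mice. Its 2 control mice at ZT18 were far apart, at 410 and 849 reads, and without the higher of them the unadjusted p was 0.00256 and the adjusted p was 0.804. The unadjusted p was also under 0.05 with the deposited totals alone (0.0454), with the split between ZT6 and ZT18 and the other libraries as a covariate (0.0471), and without the second mutant mouse of ZT6 (0.0398) or of ZT10 (0.0391), each with an edgeR adjusted p of at least 0.804. For the other 4 the unadjusted p-values were between 0.306 and 0.815.

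**Figure D3:**
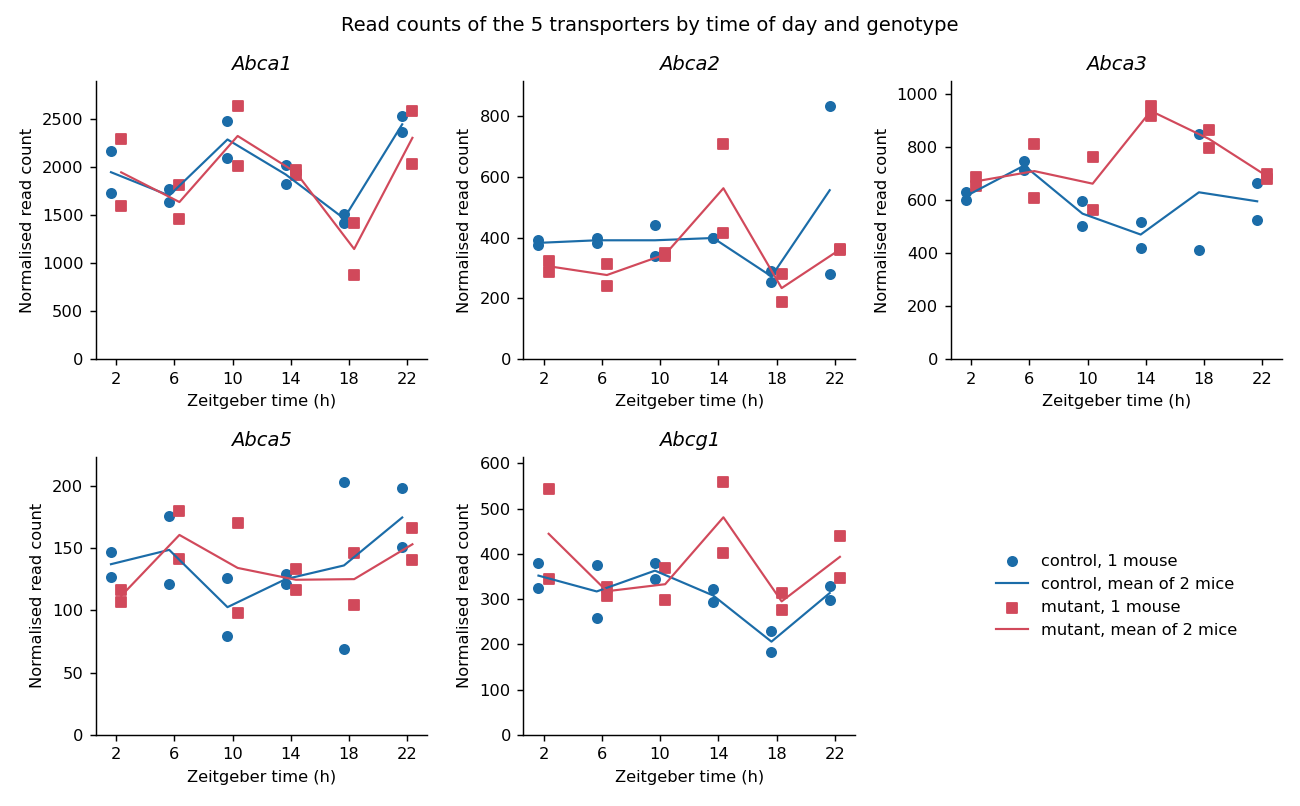
Normalised read counts of each transporter against zeitgeber time in hours, with 1 point per mouse (circles, control; squares, mutant) and lines through the mean of 2 mice. Abca1 dips at ZT18 in both genotypes, Abca3 parts at ZT14 (421 and 519 reads in control, 954 and 919 in mutant mice), and the single high Abca2 values are 833 in a control mouse at ZT22 and 710 in a mutant mouse at ZT14.

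The clearest pattern among the transporters ran with the libraries of ZT6 and ZT18 mice. Abca1, Abcg1 and Abca2 were lower there than in the other 16 libraries, whereas Abca3 and Abca5 had no difference past the threshold. Genotype was a covariate in this test (edgeR quasi-likelihood, Benjamini-Hochberg), in which 10.9% of all genes were lower and 5.85% higher in the ZT6 and ZT18 libraries. Of the 5 transporters, 3 were lower and 0 were higher.

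Abca1 had 1770, 1638, 1512 and 1418 reads in the 4 control mice of ZT6 and ZT18, and 1459, 1814, 877 and 1417 in the 4 mutant mice. In the other control mice its lowest, median and highest counts were 1729, 2132 and 2530, and in the other mutant mice 1597, 2023.5 and 2634. In each genotype the groups overlapped by a single mouse on either side. The level in ZT6 and ZT18 libraries was 0.697-fold that of the others (log2 fold change -0.52, standard error 0.10, edgeR adjusted p = 0.000297). Within each genotype the call held, with a log2 fold change of -0.46 (adjusted p = 0.0286) in control and -0.58 (adjusted p = 0.0204) in mutant mice.

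Abcg1 had 376, 258, 230 and 182 reads in the control mice of ZT6 and ZT18 and 327, 308, 313 and 277 in the mutant mice. Elsewhere it had 294, 326.5 and 381 reads (lowest, median, highest) in control and 297, 386 and 559 in mutant mice, so that the groups overlapped. The ratio was 0.766 (log2 fold change -0.38, standard error 0.12, edgeR adjusted p = 0.0239). Within control mice alone the log2 fold change was -0.37 (edgeR adjusted p = 0.291) and within mutant mice alone -0.39 (edgeR adjusted p = 0.185), the same size without passing the threshold. Leaving out either control mouse of ZT18, or the second mutant mouse of ZT18, took the adjusted p above 0.05, to at most 0.0721.

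Abca2 had 400, 383, 291 and 254 reads in the control mice of ZT6 and ZT18 and 240, 314, 281 and 187 in the mutant mice. In the other libraries it had 280, 395 and 833 reads in control and 288, 354 and 710 in mutant mice, again with overlap. The ratio was 0.709 (log2 fold change -0.50, standard error 0.17, edgeR adjusted p = 0.0337). This call rests in part on the pair of libraries with 833 and 710 reads, without which the log2 fold change was -0.30 (edgeR adjusted p = 0.0877). Leaving out 1 mouse ended the call for either of those, for each control mouse of ZT18, for the first mutant mouse of ZT6 and for the second mutant mouse of ZT18 (edgeR adjusted p from 0.0509 to 0.0871).

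Abca3 had 712, 749, 410 and 849 reads in the control mice of ZT6 and ZT18 and 607, 812, 863 and 798 in the mutant mice. The other libraries had between 421 and 954, so that the groups overlapped and only the control mouse with 410 lay outside that range. Its log2 fold change was 0.18 (standard error 0.11, edgeR adjusted p = 0.312). Abca5 had between 69 and 203 reads in the ZT6 and ZT18 libraries and between 79 and 198 elsewhere (log2 fold change 0.11, standard error 0.17, edgeR adjusted p = 0.771).

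Marker genes of several cell types moved with the same libraries. All 12 microglial markers were lower in the ZT6 and ZT18 libraries (median log2 fold change -3.80), as were 9 of 10 neuronal, 8 of 10 astrocyte and 8 of 11 oligodendrocyte markers, 3 of 4 choroid plexus and ependyma markers (median -1.84) and 5 of 6 red blood cell genes (median -0.62), whereas 10 of 12 endothelial and 9 of 10 pericyte and smooth muscle markers were higher. The summed choroid plexus and ependyma markers were between 1869 and 7263 reads, against 2961 to 66863. The summed astrocyte markers were between 4923 and 8078 reads, against 10996 to 22095, and the summed oligodendrocyte markers between 4989 and 8050, against 7935 to 21653. Mal, among the largest counts in the oligodendrocyte sum, did not fall, with a mean of 3047 reads at ZT6 and ZT18 and 2785 elsewhere. Microglial markers stayed above 0 in nearly all libraries, Trem2 being at 0 in 1, and the oligodendrocyte markers Mog and Opalin averaged 0 reads in the ZT6 and ZT18 libraries. The part of these cell types in the levels of Abca1, Abcg1 and Abca2 was not tested for this comparison. In sorted bulk samples, fewer cells of a type and less RNA per cell cannot be told apart.

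**Figure D4:**
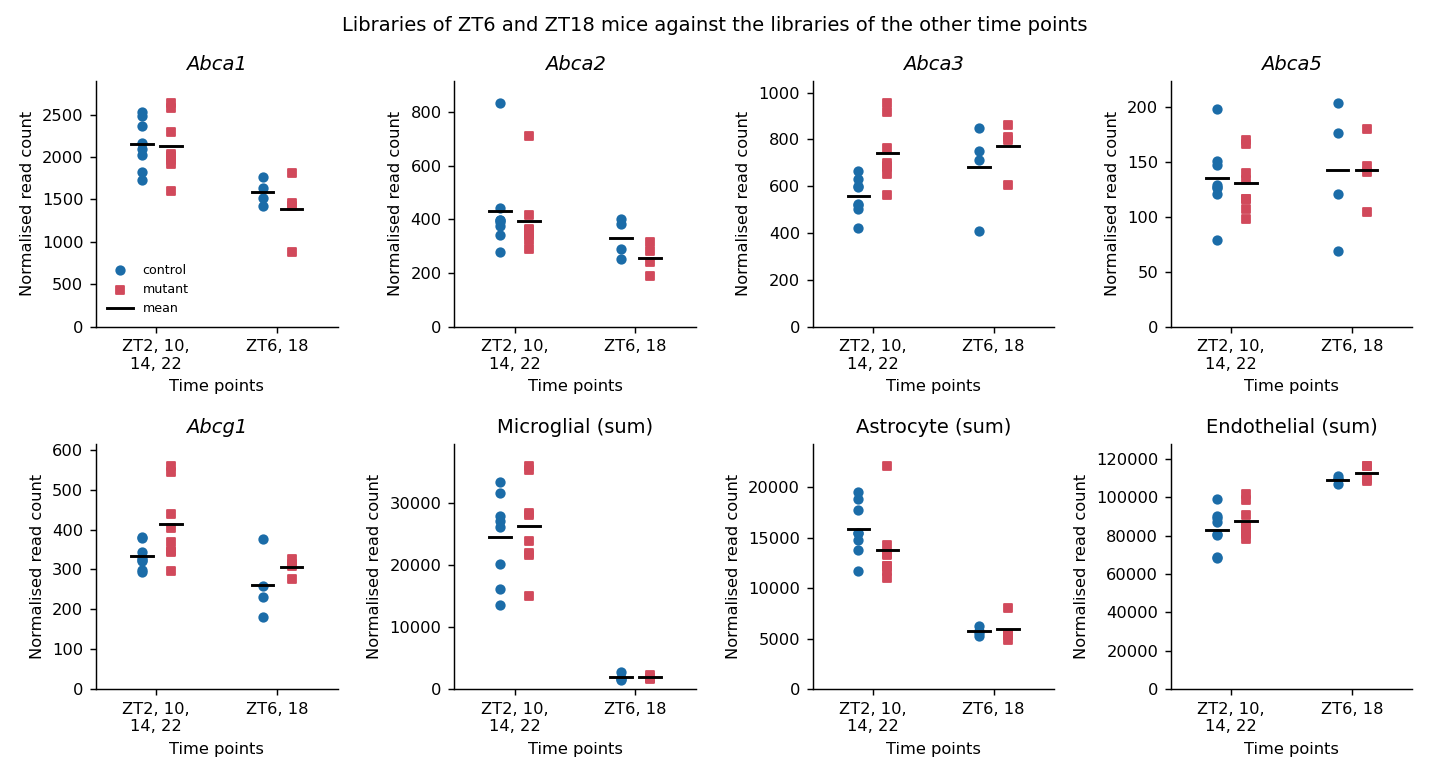
Normalised read counts of the 5 transporters and summed microglial, astrocyte and endothelial marker counts in the libraries of ZT2, ZT10, ZT14 and ZT22 mice (8 per genotype) and of ZT6 and ZT18 mice (4 per genotype), with 1 point per mouse and bars at the mean. Abca1, Abca2 and Abcg1 lie lower at ZT6 and ZT18 together with the microglial sum (1510 to 2718 against 13506 to 35983 reads), with overlap between the time points for each transporter and none for the microglial sum.

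Abca2 was the transporter with single libraries far above the rest. In the second control mouse of ZT22 it had 833 reads, where the other mouse of that time point had 280, and in the second mutant mouse of ZT14 it had 710, where its partner had 416. In the other 22 libraries it lay between 187 and 443. These 2 libraries were also the highest in the summed choroid plexus and ependyma markers, with 66863 and 19080 reads. On average most of this sum was Ttr, with a mean of 11472 reads in control and 9205 in mutant mice. Kl, the next marker, had 614 and 525. The first mutant mouse of ZT22 was close behind with a sum of 17974 reads, but its Abca2 count was 363, within the range of the rest. The part of these cells in the Abca2 count was not tested. Abca4, a relative best known as a retinoid transporter of photoreceptors, also had its highest count in the same control mouse, at 821 reads. Without the 2 libraries the log2 fold change of Abca2 between genotypes was -0.18 (edgeR adjusted p = 0.906), against -0.23 with them. As they are of opposite genotype, leaving out 1 alone moved it further, to -0.09 (edgeR adjusted p = 0.965) without the control mouse and to -0.32 (edgeR unadjusted p = 0.0204, adjusted p = 0.633) without the mutant mouse.

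**Figure D5:**
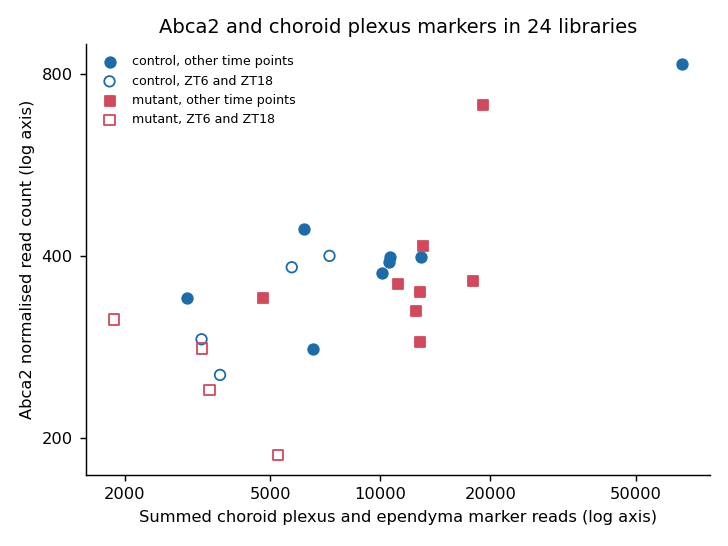
Abca2 normalised read count against the summed choroid plexus and ependyma marker count in 24 libraries (both axes log; filled symbols, ZT2, ZT10, ZT14 and ZT22; open symbols, ZT6 and ZT18). On average most of the sum is Ttr. The libraries with the highest Abca2 counts, 833 and 710 reads, have the highest marker sums, 66863 and 19080 reads, but a mutant library of ZT22 with a sum of 17974 has 363 Abca2 reads.

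Among 17 relatives of the ABCA and ABCG families, 9 had enough reads to be tested. None passed the genotype test, and their median log2 fold change was 0.02 against 0.00 for all genes. The 1 relative with an unadjusted p under 0.05 was Abca9, a transporter known from macrophages (log2 fold change 0.38, edgeR unadjusted p = 0.0109, adjusted p = 0.513). In the ZT6 and ZT18 libraries 2 of the 9 relatives were lower (10.9% of all genes), Abca9 with a log2 fold change of -2.49 and Abca4 with -1.30. Abca9 had between 95 and 202 reads there and between 334 and 1172 elsewhere, with no overlap. By meta2d, Abcg2 was the single relative with q under 0.6 in control mice (q = 0.481, p = 0.000800), and in mutant mice it had p = 0.0310 and q = 1. Cosines fitted to its counts peaked at ZT13.0 in control and at ZT13.2 in mutant mice.

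Of the regulators that act on these genes (LXR, RXR and SREBP factors with their cofactors), 0 of 15 tested passed the genotype test. The retinoid X receptor Rxra, the partner of the LXRs on DNA, had an unadjusted p under 0.05 (log2 fold change 0.27, edgeR unadjusted p = 0.0441, adjusted p = 0.697). The coactivator Ppargc1a was the 1 regulator that differed in the ZT6 and ZT18 libraries (log2 fold change -1.32, edgeR adjusted p = 0.0299). Ncoa1, another coactivator, had the 1 unadjusted p under 0.05 of these genes for a rhythm difference (edgeR p = 0.0174, adjusted p = 1.00), and its meta2d p was 0.0145 in control and 0.801 in mutant mice, both with q = 1. Among other LXR target genes 0 of 14 passed. The lipoprotein lipase Lpl had the smallest p of these (edgeR unadjusted p = 0.000684, adjusted p = 0.126), with 45.2 ± 24.3 reads in control and 98.1 ± 44.6 in mutant mice. The estimate was positive for 11 of the 14 targets (median log2 fold change 0.14), against 7844 of 15493 genes. In the ZT6 and ZT18 libraries 6 of the 14 targets were lower and none was higher, where 10.9% of all genes were lower and 5.85% higher. These were Arl4c with a log2 fold change of -2.83, the desaturases Scd1 (-1.41) and Scd2 (-0.92), Tnfaip3 (-1.13), the ubiquitin ligase Mylip (-0.79) and the fatty acid synthase Fasn (-0.71).

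The acceptors of the exported cholesterol held the 1 listed gene that passed the genotype test. Apoe, the main lipid carrier of the brain, had 8148 ± 3630 reads in control and 5800 ± 1717 in mutant mice (log2 fold change -0.43, standard error 0.10, edgeR adjusted p = 0.0451) and was 1 of 7 genes tested on that list, where 0.271% of all genes passed. The call stood near the threshold and held in 7 of 24 fits that left out 1 mouse. It also held in 9 of 15 other settings. With the oligodendrocyte markers as a covariate the log2 fold change was -0.33 (edgeR adjusted p = 0.189), and with the astrocyte markers -0.35 (edgeR adjusted p = 0.110). Without both libraries highest in choroid plexus markers it was -0.37 (edgeR adjusted p = 0.144). With the i5 index, a sequencing barcode that differed between the genotypes at ZT2 and ZT10, it was -0.39 (edgeR adjusted p = 0.347). It was -0.58 (edgeR adjusted p = 0.0393) within the 16 libraries outside ZT6 and ZT18 and -0.14 (edgeR adjusted p = 0.989) within the 8 libraries of ZT6 and ZT18, a difference that was not tested. Apoe was also lower in the ZT6 and ZT18 libraries (log2 fold change -0.88), as was the lipid chaperone Clu (-0.85), whereas the HDL receptor Scarb1 (0.34) and Gpihbp1, which holds lipoprotein lipase on capillaries, were higher (10.9% of all genes were lower and 5.85% higher).

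Of 7 genes for cholesterol uptake, none passed the genotype test. Lrp8, a receptor for apolipoprotein E and reelin, had the smallest p (log2 fold change 0.33, edgeR adjusted p = 0.0888), and Scarb1 had a log2 fold change of 0.19 (edgeR adjusted p = 0.638). Lrp8 also had an unadjusted p of 0.00435 in the edgeR test of a rhythm difference, with an adjusted p of 1.00. In the ZT6 and ZT18 libraries Vldlr (log2 fold change -1.98), Lrp1 (-1.47) and Stab1 (-0.56) were lower, and Scarb1, which stands on both of these lists, was higher. Of 19 genes for the movement and storage of cholesterol inside cells, none passed the genotype test or had an unadjusted p under 0.05, while 5 were lower and 3 higher in the ZT6 and ZT18 libraries (10.9% and 5.85% of all genes). The lower ones were the lysosomal cholesterol transporters Npc1 (log2 fold change -0.92) and Npc2 (-0.88), the esterifying enzyme Soat1 (-1.01), the sterol carrier Gramd1b (-0.80) and the sterol hydroxylase Cyp27a1 (-2.66). The higher ones were the caveolar protein Cav1 (0.58), the sterol carrier Stard4 (0.41) and Vps4a (0.42), an ATPase of endosomes.

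The genes whose counts ran most like each transporter were sought over the 24 libraries, by the Pearson correlation of log2(TMM-normalised reads + 1) among genes with a mean of at least 50 reads. The libraries fall into the 2 sets described above, so these values mix differences between and within the sets. Among the closest to Abca1 were Efhd2 (r = 0.87, rho = 0.90), Mlxip, Mertk and Pik3r5, the last with r = 0.86. Closest to Abcg1 were Hsf1 (r = 0.72, rho = 0.60), Rap1gds1 (r = 0.71, rho = 0.73), Dopey2, Tbc1d16 and Cyfip1. Closest to Abca2 were Pgk1 (r = 0.84, rho = 0.77), Clic6 (r = 0.81, rho = 0.72), Ahcyl2, Cyc1 and Krt18. Closest to Abca3 were Lama3 (r = 0.76, rho = 0.79), Piezo1 (r = 0.76, rho = 0.77), Elf1, Col4a1 and Adam15. Closest to Abca5, with lower values, were Rundc1 (r = 0.65, rho = 0.57), Mut (r = 0.64, rho = 0.57), Ptcd3, Adk and Abce1.

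Without the 2 libraries farthest from the median of each transporter, r was 0.88 for Abca1 with Efhd2, 0.53 for Abcg1 with Hsf1, 0.79 for Abca2 with Pgk1, 0.81 for Abca3 with Lama3 and 0.48 for Abca5 with Rundc1. Within the 16 libraries outside ZT6 and ZT18 the lists changed. There Abca1 ran closest to Rasa3 (r = 0.88, rho = 0.84), Abcg1 to E130309D02Rik (r = 0.85, rho = 0.75), Abca2 to Ahcyl2 (r = 0.80, rho = 0.66), Abca3 to Cdkn1a (r = 0.85, rho = 0.84) and Abca5 to Tada3 (r = 0.78, rho = 0.72). Without the 2 farthest of these libraries r was 0.84 for Abca1, 0.79 for Abcg1, 0.34 for Abca2, 0.75 for Abca3 and 0.67 for Abca5, so that the value of Abca2 with Ahcyl2 rests on those 2 libraries. Of the 5 closest genes over all libraries, 2 stayed among the 5 closest for Abca2, 1 for Abca3 and 0 for Abca1, Abca5 and Abcg1.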

How the data were processed

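Per the study's methods and the labels, alignment to GRCm38 used STAR 2.5.3a (SAMtools 1.3.1), and the authors deposited whole-number counts per Ensembl gene, which the PORT pipeline had normalised to similar totals. These counts were handled as counts, since they were whole numbers, and original depth is unknown. Stranded libraries came from 1 mouse each. No column was left unassigned, and no row lacked a gene name.

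The 5 transporters and the gene lists were chosen with earlier results of these data known. A gene was tested where 6 libraries of either genotype reached 5 reads. For levels, edgeR 4.0.16 was run in R 4.3.3 (TMM, quasi-likelihood F test, Benjamini-Hochberg over 15493 genes, threshold 0.05; standard errors and intervals from the F statistic), with the time point as a factor, or with genotype for the comparison of ZT6 and ZT18 libraries with the others. Rhythms were tested with meta2d rewritten in Python 3.11.15 (NumPy 2.4.6, SciPy 1.17.1, pandas 2.3.3; q under 0.6 as in the study). DESeq2 1.42.0 was an alternative, and plots used matplotlib 3.10.9. The tests were checked on simulated data. The rhythm-difference test fell short of the recovery first required of it at the smaller amplitude simulated (peak and trough several-fold apart), so the requirement was then set at larger sizes only. Genes were named by rule: the 5 transporters in every library; from each list those past the threshold or else up to 4 with unadjusted p under 0.05; and the 5 genes with the highest correlation. Some genes that the rule names are not reported here. Abca4 was also named beside Abca2, and D330041H03Rik for its overlap, after their values were seen. Exon lengths and coordinates came from GENCODE M21 (GRCm38), which matched 53274 of 53465 genes and is another release than the authors' Ensembl annotation, and promoters came from RefSeq. Libraries are separate mice, so the p-values measure the spread between mice. The split between the ZT6 and ZT18 libraries and the others has no replicate of its own. The p-values of that comparison therefore do not measure how far such sets of libraries differ. Alternatives with choroid plexus or astrocyte markers as a covariate, or without both libraries highest in choroid plexus markers, were added after the data were seen.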

Additional observations from a re-analysis of the deposited data

Results flagged for a closer look

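Among the 8 control libraries outside ZT6 and ZT18, the Abca2 count of 833 reads in the second mouse of ZT22 stood far from the others, with a gap of 0.705 of the group's range, above Dixon's 95% critical value for 8 samples. Among the 8 mutant libraries outside ZT6 and ZT18, the Abca2 count of 710 reads in the second mouse of ZT14 stood apart in the same way (gap 0.697 of the range). These were 2 of 20 groups examined over the 5 transporters, and chance alone flags about 1 group in 20. No cause was tested.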

How the results depend on the processing

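In all settings tried, 0 of the 5 transporters passed the threshold for genotype, for a rhythm in either genotype or for a difference in rhythm. The unadjusted meta2d p fell under 0.05 in 3 fits that left out a mouse, for Abcg1 without the second control mouse of ZT6 (0.0253), for Abca3 without the second control mouse of ZT18 (0.0155) and for Abca3 without the second mutant mouse of ZT10 (0.0237), each with q = 1. Abca1, Abca2, Abca3 and Abcg1 kept the direction of their genotype difference throughout. Abca5, near no change, turned positive within the 8 ZT6 and ZT18 libraries (log2 fold change 0.024), without both libraries highest in choroid plexus markers (0.0074), and in 7 fits that left out a mouse, whose range was -0.098 to 0.084. In the comparison of ZT6 and ZT18 libraries with the others, Abca1 passed in every setting. Abca2 no longer passed with the deposited totals alone (log2 fold change -0.45), without both of those libraries (-0.30), within control mice (-0.40) or within mutant mice (-0.59), and ranged from -0.55 to -0.40 with each mouse left out. Abcg1 no longer passed within control (-0.37) or within mutant mice (-0.39), and ranged from -0.49 to -0.32 with each mouse left out. The number of transporters past the threshold was then 1 within either genotype, and between 1 and 3 with each mouse left out. The smaller number of samples applies to the fits within a genotype, and for the rest the cause was not tested.

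Over all genes, the genotype test called 42 genes, 99 with DESeq2, 141 without a filter, 7 with the i5 index as a covariate, 25 with oligodendrocyte markers as a covariate, 24 without both libraries highest in choroid plexus markers, 3 within the 8 ZT6 and ZT18 libraries, and 25 to 68 with each mouse left out. The rhythm difference gave 0 genes, 52 without a filter and 5 within the 16 other libraries. The comparison of ZT6 and ZT18 libraries with the others gave 2595 genes, 1624 with a stricter filter, 1064 within control and 1535 within mutant mice. meta2d gave 48 genes in control and 6 in mutant mice, and 24 and 43 in mutant mice after TMM rescaling and with a stricter filter. Leaving out either control mouse of ZT2 took the control count to 0.

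The replicate numbers did not pair the mice, as deviations of same-numbered mice correlated over 0.1 in 1 of 66 pairs of groups (median 0.0096). With the replicate block, 45 genes passed the genotype test, and no call among the transporters changed (log2 fold changes of 0.33 for Abca3 and 0.28 for Abcg1 between genotypes). Depth before normalisation is not in the counts, so precision was judged from the spread between mice and the fitted standard errors. Abca5, with 69 to 203 reads, had the largest standard error for genotype (0.16 on the log2 scale), and Abca2, with 187 to 833 reads, the next (0.14).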
